A study of Danio rerio with 50 samples.

Results

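Nothepsin (gene nots) is an aspartic protease of fish liver. All probes annotated nots were taken, which gave 1 probe (5447800), or 1 of 9264 named genes and 1 of 23232 probes on the array. The probe had a value on all 50 arrays. Each array compared liver RNA of adult male zebrafish, labelled with Cy5, with a reference pool, labelled with Cy3. The pool is described as liver RNA from untreated wild-type males and females in equal amounts. The treated males had lived in water with estradiol at 0.5, 5 or 50 µg/L, called the low, middle and high dose below, for 24 or 96 h. Each dose had 6 arrays at 24 h, and at 96 h the low dose had 6, the middle dose 4 and the high dose 7. The untreated males numbered 8 at 24 h and 7 at 96 h. The labels do not name the strain, the age of the fish or a solvent, and they call the samples biological replicates without saying whether fish of a group shared a tank.

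Aspartic proteases cut proteins with a pair of aspartate residues in the active site. The family includes the lysosomal cathepsin D, the stomach pepsins and renin, and nothepsin is known from fish as a relative of cathepsins D and E that is made in the liver of females. In egg-laying vertebrates, estradiol from the ovary acts on the hepatocyte through the estrogen receptor esr1 and turns on the genes of vitellogenins, the yolk precursors, which are released into the blood and taken up by growing oocytes. Males carry the same genes, and estradiol in the water can turn on vitellogenin synthesis in them.

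The first values are log2 ratios of the fish sample to the pool, each array centred on its median, so that 0 is the level of the pool. Adjusted p-values come from limma, with Benjamini-Hochberg adjustment over 22046 tested probes. A change is called below an adjusted p of 0.05, and each difference ± SE is from the same fit of all 50 arrays. The replicate spread is that between arrays of a group. Depth has no counterpart on arrays, and the number of arrays limits the precision.

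Several treated arrays stood apart from their groups. On 5 of the 35, all of the high dose, under 60% of Cy5 spots were above background (25.7% to 57.0%). These low-signal arrays were replicates 3, 4 and 5 of 24 h and replicates 3 and 4 of 96 h. A set of 4 treated arrays, among them 2 low-signal ones, had a higher r across probes with the other time of their dose than with the rest of their group. For the high dose these were replicate 5 of 24 h (r = 0.890 and 0.847) and replicate 4 of 96 h (0.925 and 0.862). For the low and the middle dose they were replicate 2 (0.634 and 0.592) and replicate 3 (0.821 and 0.814) of 24 h. On that low-dose array, all 12 measured ovary and oocyte markers were above the pool, with a mean log2 ratio of 0.81. The next highest array had a mean of -1.32 for these markers. Among the controls, replicate 4 of 24 h (0.906 and 0.899) and replicates 1 (0.915 and 0.913) and 4 (0.922 and 0.921) of 96 h were also nearer to the other time. These controls stayed in when the 4 treated arrays were left out. All arrays were kept in the values below, and the dose and time comparisons in which the treated arrays named here changed a call are also given without them. Scanner brightness was examined for the treated arrays only, and that of the controls was not used here.

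In untreated males nots was close to the pool. At 24 h the 8 control arrays ran from -0.81 to 0.09 with a median of -0.27 (mean -0.29 ± 0.30, SD, n = 8), and at 96 h the 7 control arrays ran from -0.93 to -0.07 with a median of -0.27 (mean -0.46 ± 0.37, SD, n = 7). The control groups overlapped and differed by -0.17 ± 0.25 (adjusted p = 0.855), in a contrast where 1.02% of tested probes passed. The pool was thus 1.22-fold above the 24 h controls, which did not pass the test (adjusted p = 0.144), and 1.38-fold above the 96 h controls (adjusted p = 0.0271). In the same contrasts 60.7% and 63.7% of all tested probes passed. The yolk gene vtg3, averaged over its 15 probes, was 9.03-fold and 9.16-fold lower in these controls than in the pool. On 24 h controls the mean log2 ratio to the pool was 2.42 to 3.48 for hepatocyte markers. It was -2.27 to -1.49 for ovary and oocyte markers and -2.69 to -1.61 for intestine markers. Macrophage (-1.79 to -1.22) and erythrocyte markers (-3.16 to -0.84) were also below the pool. Testis markers (-0.28 to 0.37) and exocrine pancreas markers (-1.19 to 0.775) lay on both sides of it. Whether the pool held liver RNA alone was not tested, so these folds cannot be read as male against mixed-sex liver. No array held female liver alone, so a higher level of nots in females was not measured here, and all ratios share 1 dye orientation.

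After 24 h nots did not pass the test at the low dose and rose at the higher doses. The 6 low-dose arrays stood between -0.26 and 0.83 with a median of 0.13 (mean 0.22 ± 0.44, SD, n = 6). Of these, 3 were above all 24 h controls and 3 lay within the range of the controls. The difference was 0.51 ± 0.26, or 1.42-fold (95% interval 0.984 to 2.06), with an adjusted p of 0.497, where 0.503% of all tested probes changed. An exact permutation test of nots alone, two-sided and adjusted over 19 contrasts, gave p = 0.0325. Without replicate 2, the array with high ovary markers and the highest nots ratio of its group, the difference was 0.39 and the exact test gave an adjusted p of 0.0867.

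The 6 arrays of the middle dose at 24 h lay between 2.66 and 3.51 with a median of 3.12 (mean 3.12 ± 0.35, SD, n = 6). None overlapped with the controls. Nots rose by 3.41 ± 0.26, a 10.6-fold change (95% interval 7.37 to 15.4, adjusted p = 1.96e-14), where 6.08% of tested probes changed.

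With the high dose at 24 h the arrays ranged from 3.41 to 5.65 with a median of 4.35 (mean 4.40 ± 0.80, SD, n = 6). The 3 low-signal arrays, at 4.64, 4.79 and 5.65, were the 3 highest, and the other 3 stood at 3.41, 3.84 and 4.05. Nots rose by 4.69 ± 0.26, or 25.7-fold (95% interval 17.8 to 37.2, adjusted p = 7.68e-20), with 12.8% of probes changed. All 6 arrays were above the controls. Without the 3 low-signal arrays the rise was 4.05 ± 0.27, or 16.6-fold (adjusted p = 4.73e-16), which lies below the interval given for all 6.

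**Figure D1:**
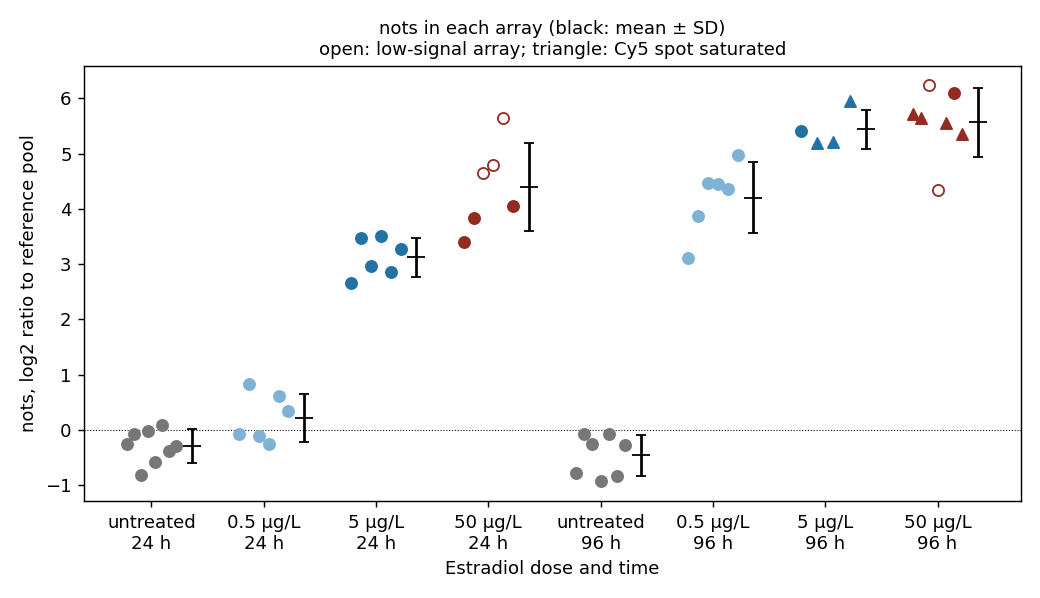
The log2 ratio of nots to the reference pool on each of the 50 arrays, by dose and time; black marks are the group mean and SD, open symbols are low-signal arrays and triangles are arrays whose Cy5 spot was saturated. Controls lie between -0.93 and 0.09, low-dose arrays of 24 h between -0.26 and 0.83, and every other treated array is at 2.66 or above.

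At 96 h all 3 doses raised nots above every control array. The 6 low-dose arrays ran from 3.11 to 4.97 with a median of 4.40 (mean 4.21 ± 0.64, SD, n = 6). The rise was 4.67 ± 0.27, or 25.4-fold (95% interval 17.4 to 37.2, adjusted p = 3.19e-19), at a dose and time where 3.25% of tested probes changed. The 4 middle-dose arrays stood at 5.42, 5.18, 5.20 and 5.95 (mean 5.44 ± 0.36, SD, n = 4). Nots was 5.90 ± 0.31 higher, a 59.7-fold change (95% interval 38.9 to 91.6, adjusted p = 2.3e-21), with 12.6% of probes changed.

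The 7 high-dose arrays of 96 h ranged from 4.34 to 6.23 with a median of 5.65 (mean 5.56 ± 0.62, SD, n = 7). The lowest and the highest of them were the low-signal replicates 4 and 3. The rise was 6.03 ± 0.26, or 65.2-fold (95% interval 45.2 to 93.8, adjusted p = 7.74e-25), where 18% of tested probes changed. Without the low-signal arrays it was 6.14 ± 0.23. The values of the middle and high doses at 96 h are capped by saturation, described below. Compared with the pool, nots stood 43.3-fold higher with the middle dose and 47.3-fold higher with the high dose. In both groups this was the highest mean ratio of the 22046 tested probes as measured, in values that saturation can cap.

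At 24 h the middle dose exceeded the low dose by 2.90 ± 0.28 (adjusted p = 2.55e-10), and these groups did not overlap. The step from the middle to the high dose was 1.27 ± 0.28 (adjusted p = 0.018), with 5 of 6 arrays above all middle-dose arrays. It was 0.64 without the low-signal arrays (adjusted p = 1) and 0.99 without the 4 arrays nearer to the other time (adjusted p = 0.0863). The shares of probes that changed in these steps were 3.76% and 0.349%.

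At 96 h the middle dose exceeded the low dose by 1.23 ± 0.32 (adjusted p = 0.0185), with no overlap and 2.59% of probes changed. The call ended when low-dose replicate 1 or middle-dose replicate 1 or 4 was left out (adjusted p up to 0.08). Between the middle and the high dose the difference was 0.13 ± 0.31 (95% interval -0.49 to 0.74, adjusted p = 0.985), in a contrast where limma passed 0 of 22046 probes (0%) after adjustment and 1134 at an unadjusted p under 0.05. The middle and high doses at 96 h are the groups with saturated spots, so 1.23 is a lower limit and the size of the difference between these 2 doses is not settled by the ratios.

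The same dose gave a larger rise at 96 h than at 24 h for the low and the middle dose. Tested as a difference of the effects, each against controls of its own time, the low-dose rise was 4.16 ± 0.38 larger at 96 h (adjusted p = 1.93e-10), where 0.758% of tested probes passed. The middle-dose rise was 2.49 ± 0.41 larger (adjusted p = 0.000632, 1.27% of probes), a lower limit since its 96 h spots were mostly saturated, and for the high dose the difference of 1.34 ± 0.37 did not pass (adjusted p = 0.11, 0.195% of probes). That last value was 2.08 without the low-signal arrays (adjusted p = 0.000804) and 1.79 without the 4 arrays nearer to the other time (adjusted p = 0.00115). Leaving out replicate 5 at 24 h or replicate 4 at 96 h alone also brought it past the threshold (adjusted p = 0.0189 and 0.0228). As measured, the gain with time was 2.82 ± 0.39 larger for the low than for the high dose (adjusted p = 3.85e-05, 0.576% of probes). The high-dose gain is capped on 4 of 7 arrays and the low-dose gain on none, so 2.82 is an upper limit and its p cannot be read as a test of the uncapped gains. The gains of the low and the middle dose differed by 1.67 ± 0.42 (adjusted p = 0.0765, 0.195% of probes), an upper limit for the same reason. That contrast passed without the low-signal arrays (1.67, adjusted p = 0.00795) and without the 4 arrays nearer to the other time (1.82, 0.00521). It also passed with array weights (1.78, 0.00586) and with quantile normalization (2.49, 0.000126). With the replicate number as a block in the fit it did not (1.57, adjusted p = 0.132). The middle-dose gain is capped on 3 of 4 arrays, so none of these p-values tests the uncapped gains.

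From lowest to highest mean ratio the groups were the controls of 96 and 24 h, the low dose (24 h), the middle dose (24 h), the low dose (96 h), the high dose (24 h), the middle dose (96 h) and the high dose (96 h). Among these neighbours, the low and middle doses of 24 h passed limma's test with all arrays. From the middle dose at 24 h to the low dose at 96 h the step was 1.08 ± 0.28 (adjusted p = 0.0579, 0.513% of probes passed), and it passed the exact permutation test of nots alone (adjusted p = 0.0137) and limma's test without the low-signal arrays (1.08, adjusted p = 0.01), without the 4 arrays nearer to the other time (1.05, adjusted p = 0.0226) or with array weights (adjusted p = 0.00446). From the high dose at 24 h to the middle dose at 96 h it was 1.04 ± 0.32 (adjusted p = 0.112, 0.549% of probes passed). Without the low-signal arrays that step was 1.67 ± 0.30 (adjusted p = 0.00162), without the 4 arrays nearer to the other time 1.29 (0.00482), and with array weights 1.09 (0.0369). It did not pass the exact permutation test of nots alone (adjusted p = 0.0622). With the replicate number as a block, neither it (1.14, adjusted p = 0.0842) nor the step before it (1.08, 0.0688) passed limma's test. The middle-dose spots of 96 h were mostly saturated, so the step from the high dose at 24 h is a lower limit. The low dose for 96 h and the high dose for 24 h differed by 0.19 ± 0.28 (95% interval -0.38 to 0.76, adjusted p = 0.821), where 5.17% of probes passed. The high-dose arrays of 24 h that were not low-signal stood at 3.41, 3.84 and 4.05, each below the low-dose mean of 96 h (4.21). The order of these groups thus rests on the low-signal arrays.

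The scanner files of the 35 treated arrays show the spot behind these ratios. Its Cy3 brightness, the reference pool, ran from 741 to 3390 scanner units and was never saturated. Its Cy5 brightness, the fish sample, ran from 1019 to 4115, from 14148 to 19705 and from 14907 to 42889 with rising dose at 24 h. At 96 h the low dose gave 21432 to 49054. Local background was 49 to 209 in Cy5, and at least 91% of the spot's pixels were above background in both channels on every treated array. The spot was therefore measured well above background also at the lowest dose.

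With the higher doses at 96 h the Cy5 channel reached its ceiling, a median brightness of 65535. This was so on 3 of 4 middle-dose arrays and on 4 of 7 high-dose arrays, and on none of the other treated arrays. A saturated spot gives the least brightness it can have had, so the ratios of these 7 arrays are lower limits. Middle-dose replicate 1, unsaturated at 39866, had a ratio of 5.42, within the range of the saturated arrays. The high-dose replicates with a median below the ceiling were 3, 4 and 6, at 35389, 29087 and 63495 units with ratios of 6.23, 4.34 and 6.10. Replicate 6 was close to the ceiling, and whether part of its pixels were saturated was not examined.

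**Figure D2:**
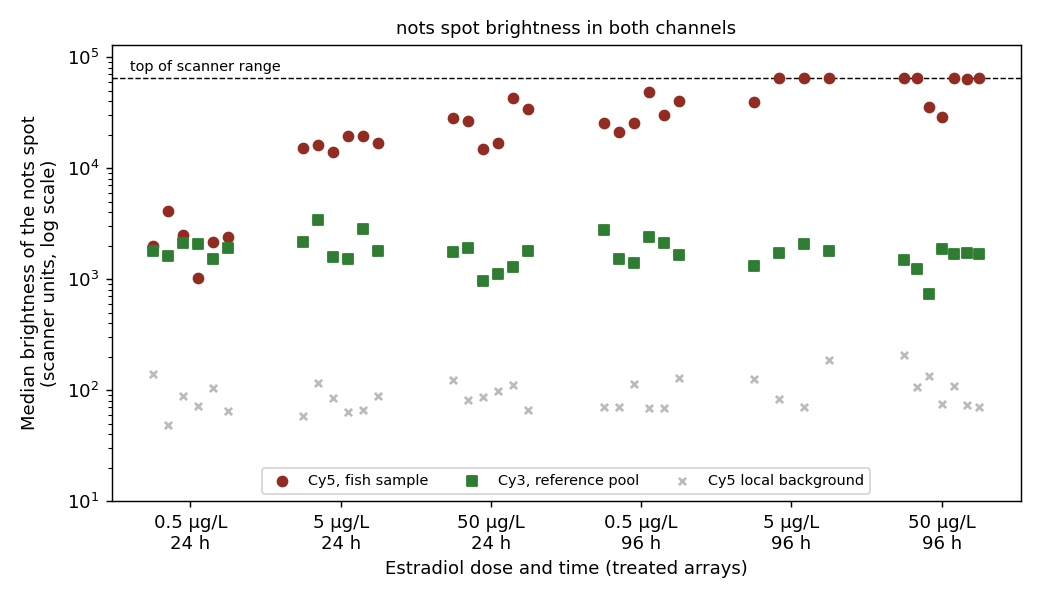
Median brightness of the nots spot on the 35 treated arrays on a log scale, with 1 point per array and channel; the dashed line is the brightness ceiling. Cy5 climbs from between 1019 and 4115 for the low dose at 24 h to the ceiling on 7 arrays at 96 h, while Cy3 stays between 741 and 3390.

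Estrogen-responsive genes of liver gave the frame for this response. Vtg3 rose at every dose and time, including the low dose at 24 h, where its probe brightest in Cy3 was 4.50 ± 0.26 higher (adjusted p = 7.28e-19) and nots did not pass. On those 6 arrays the mean of the 15 vtg3 probes ran from 0.05 to 2.099, while the 24 h controls lay between -3.57 and -2.66, so that vtg3 was above the controls on all 6 arrays and nots on 3. Set against vtg3 on the same arrays, the change of nots was smaller by 3.70, 3.38 and 2.43 with rising dose at 24 h. At 96 h it was smaller by 2.56, 1.74 and 1.98. All 6 differences as measured passed an exact permutation test, two-sided and adjusted over 12 tests (adjusted p = 0.002 to 0.00808). The Cy5 spot of the vtg3 probe brightest in Cy3 was saturated on 22 of the 35 treated arrays. At least 1 of the 15 vtg3 probes, whose mean was tested, was saturated on 27 of the 35. None was saturated with the low dose at 24 h, where the difference is between unsaturated spots. With the other doses at 24 h and the low dose at 96 h the vtg3 side alone is capped. With the middle and high doses at 96 h both genes were saturated on most arrays, and neither the size nor the p of the last 2 differences can be read.

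The receptor gene esr1 was called at the same combinations of dose and time as nots. Its probe was dim: it was above background in Cy3 on 12 of the 35 treated arrays and in Cy5 on 24. Its ratios therefore lie near the floor, and its folds may be compressed. The 12 exact tests above include those of nots against esr1, whose sizes are not read for this reason. At 24 h esr1 was 0.20 ± 0.32 higher with the low dose (adjusted p = 0.873) and rose by 3.27 ± 0.32 and 3.60 ± 0.32 with the middle and high doses. At 96 h it rose by 2.43 ± 0.33, 3.37 ± 0.37 and 3.07 ± 0.31.

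**Figure D3:**
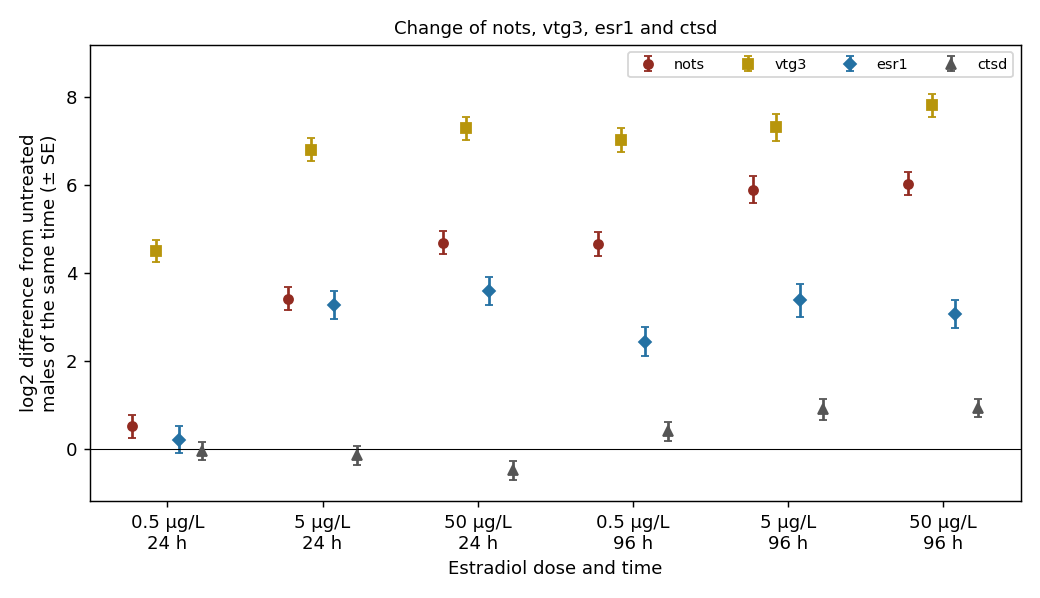
Log2 difference from untreated males of the same time, ± SE of the limma fit, for nots, vtg3, esr1 and ctsd at the 6 combinations of dose and time. Nots goes from 0.51 to 6.03, vtg3 stands at 4.50 or higher throughout, esr1, a dim probe, lies between 0.20 and 3.60, and ctsd stays between -0.50 and 0.93.

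Across arrays nots and vtg3 formed separate clusters of controls, the low dose at 24 h and all other treated arrays, so their relation was taken within groups. In the 7 groups of at least 6 arrays, Pearson's r between nots and the vtg3 mean was 0.11 and -0.05 in the controls of 24 and 96 h. It was 0.85, 0.82 and 0.88 with rising dose at 24 h, and 0.40 and 0.84 with the low and the high dose at 96 h. No r passed after adjustment over the 7 groups (exact permutation p adjusted, 0.0556 to 0.909). Spearman's rho was 0.96 for the high dose at 96 h and passed (exact adjusted p = 0.0194), and in the other groups it was 0.18 to 0.94 without passing. In that group nots was saturated on 4 of 7 arrays and the vtg3 probe on 5 of 7. A ratio with capped Cy5 varies with the array's Cy3 brightness, which both genes share, so this rho cannot be read as a relation of their levels. With the 2 arrays farthest from the median of vtg3 left out, r in the groups named first to last was -0.44, 0.77, 0.86, 0.99, 0.88, 0.91 and 0.80, on 4 to 6 arrays each.

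Pooled as deviations from the group means over 50 arrays, nots and vtg3 had r = 0.58 and rho = 0.61 (permutation within groups, 100000 resamples, p = 4e-05 for each). By the same permutation test r was 0.46 without the 5 low-signal arrays (permutation p = 0.00502), 0.43 without these and the arrays nearer to the other time (p = 0.00583), and 0.59 without the 2 arrays farthest from the median deviation of vtg3 (p = 0.00011). Treated arrays with a higher measured nots ratio than their group tended to have a higher measured vtg3 ratio. Within the 35 treated arrays r was 0.69 (p = 1e-05, the smallest these permutations can give), and within the 15 control arrays it was 0.02 (p = 0.95). Deviations of nots and the share of Cy5 spots above background had r = -0.30 (p = 0.17). All such r share the array, its reference pool and its dyes, and in the treated arrays also the saturation of both spots. At least 1 vtg3 probe was saturated on 27 of the 35 treated arrays, and nots on 7. The pooled and treated r and their p therefore cannot be read as a relation of levels. In the treated group without saturation of either gene, the low dose at 24 h, r was 0.85 (exact permutation, adjusted p = 0.0948). Over 21697 probes the median r of deviations with nots was 0.0289, and 57 probes (0.263%) exceeded 0.5.

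**Figure D4:**
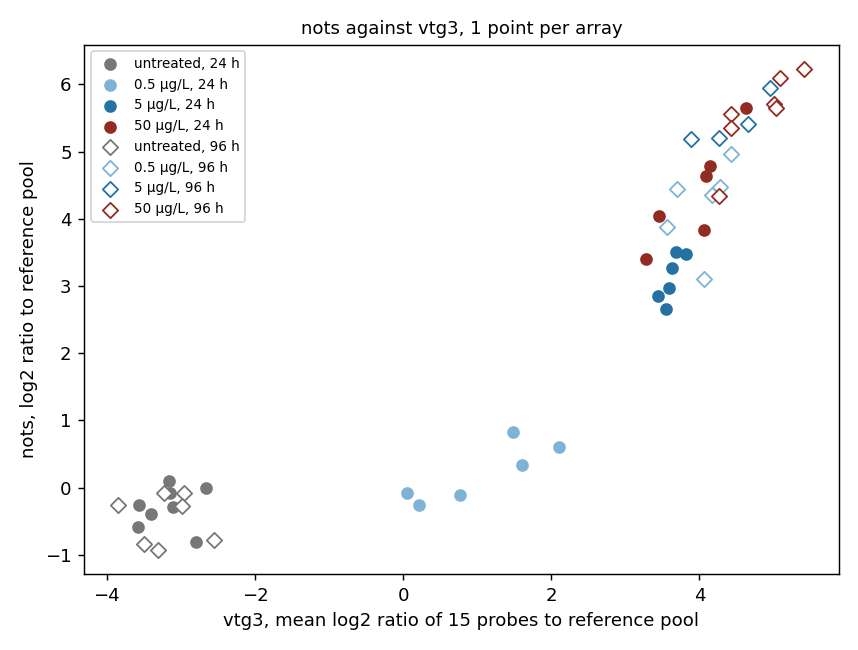
The log2 ratio of nots against the mean log2 ratio of 15 vtg3 probes, both to the reference pool, 1 point per array, filled for 24 h and open for 96 h. Controls lie near -3.2 on the vtg3 axis, the 6 low-dose arrays of 24 h have vtg3 of 0.05 to 2.099 and nots of -0.26 to 0.83, and the other treated arrays form the cloud at the upper right.

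By size of change, nots stood among the foremost named genes in all comparisons but the low dose at 24 h, where its rank by rise among 9170 named genes was 371. The rank was 4 and 3 for the middle and high doses at 24 h, and 3, 4 and 4 with rising dose at 96 h. Among all 22046 tested probes its rank was 37 and 33 at 24 h, and 34, 35 and 34 at 96 h. That ranking counts each of the 15 vtg3 probes and also probes without a gene symbol. With the middle and high doses at 96 h these ranks are of capped values (nots on 3 of 4 and 4 of 7 arrays, vtg3 on 4 of 4 and 5 of 7, rtn1 on 1 of 4 and 2 of 7), and the order of nots and rtn1 there is not settled. The named genes above it were vtg3 and vtg7, both yolk precursor genes, and in 3 comparisons rtn1. Rtn1, a reticulon of the endoplasmic reticulum, rose by 3.75 ± 0.32 with the middle dose at 24 h. Just below it at 24 h were esr1 (3.27 ± 0.32) for the middle and rtn1 (4.24 ± 0.32) for the high dose, and at 96 h pax9, a transcription factor gene, at 3.99 ± 0.39, 5.62 ± 0.44 and 5.01 ± 0.37 with rising dose. Further down, for the high dose at 96 h, came apoea, an apolipoprotein E gene (4.33 ± 0.69), and pycard (4.23 ± 0.28).

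The named genes whose ratios were most like those of nots over the 50 arrays were found by Pearson's r among 8555 named genes, as a description, since the arrays share the reference and fall into dose groups. They were pycard, which encodes an inflammasome adaptor (r = 0.960), pax9 (0.956), npc2.1, whose product binds cholesterol in lysosomes (0.955), ccnd1, the cyclin D1 gene (0.955), cyp2k16, a cytochrome P450 gene (0.952), vtg7 (0.951), lye (0.951) and rtn1 (0.949). For ccnd1 the best of 16 probes was taken, and its lowest had r = 0.60. For lye the best of 4 was taken, and its lowest had r = 0.18. The 15 vtg3 probes had r of 0.914 to 0.930, esr1 0.852 and ctsd 0.308. The changes of pycard against controls were -0.10 ± 0.29 (adjusted p = 0.939), 1.66 ± 0.29 and 2.80 ± 0.29 at 24 h, and 3.01 ± 0.29, 4.06 ± 0.33 and 4.23 ± 0.28 at 96 h. As with nots, pycard did not pass at the lowest dose at 24 h and passed at the 5 other combinations. It was chosen by its r with nots on these arrays, so this likeness is no separate result. Npc2.1 went from 0.14 ± 0.25 (adjusted p = 0.89) to 3.48 ± 0.29 and 3.47 ± 0.25 with the middle and high doses at 96 h.

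The genes that ran most opposite to nots were slc2a5, known as a fructose transporter gene (r = -0.880), fn1b, a fibronectin gene (-0.878), comtd1 (-0.873) and serpinc1, the gene of antithrombin, a plasma inhibitor of clotting (-0.873). With the high dose at 96 h their changes were -3.13 ± 0.29, -2.92 ± 0.28, -3.69 ± 0.26 and -2.55 ± 0.20.

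**Figure D5:**
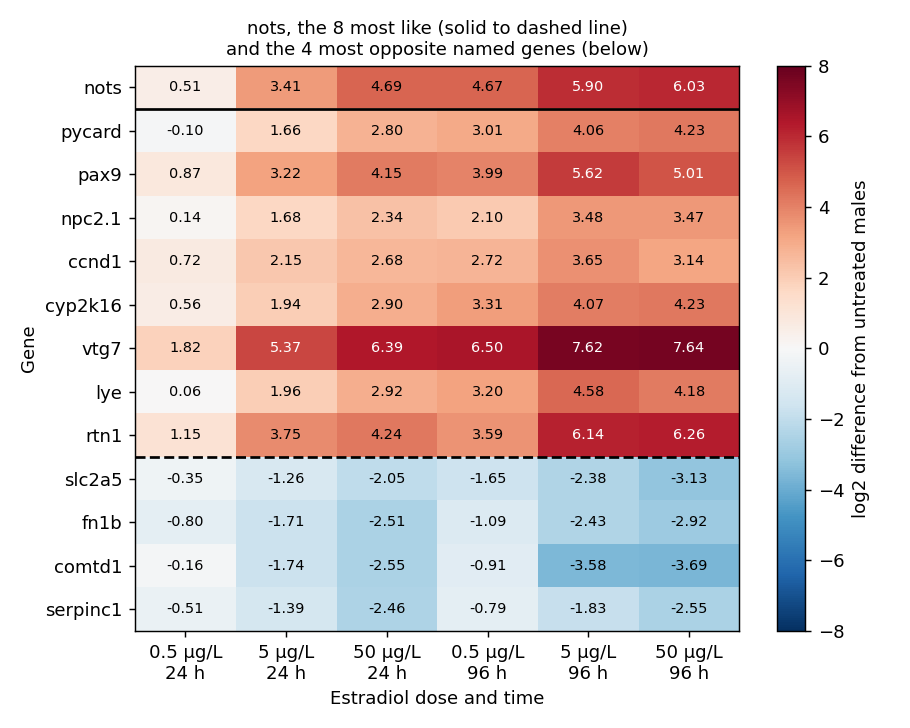
Log2 difference from untreated males of the same time for nots, the 8 named genes most like it over 50 arrays (between the lines) and the 4 most opposite ones (below the dashed line), with each value printed in its cell. Like nots, which goes from 0.51 to 6.03, these 8 genes have their lowest value with the low dose at 24 h and their highest with the middle or high dose at 96 h. The 8 were chosen by r with nots on these arrays, which favours such a pattern.

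None of the other aspartic proteases had a called change as large as that of nots in the same comparison. Of 18 listed, 9 were measured besides nots. With the high dose at 96 h, where 9.19% of all tested probes rose and 8.78% fell, 2 of the 9 rose and 1 fell, with a median difference of 0.13 against 0.03 for all tested probes. Ctsd, the lysosomal cathepsin D that cuts vitellogenin in oocytes, had no call at 24 h, with -0.06 ± 0.21, -0.16 ± 0.21 and -0.50 ± 0.21 (adjusted p = 0.116 for the last, and -0.74 with adjusted p = 0.0369 without the low-signal arrays, -0.64 with 0.0151 without the 4 arrays nearer to the other time). At 96 h it was 0.39 ± 0.21 with the low dose (adjusted p = 0.395) and rose by 0.89 ± 0.24 and 0.93 ± 0.21 with the middle and high doses. Of these calls that of the middle dose was lost with pooled controls (0.53, adjusted p = 0.158). Between the control groups, 96 against 24 h, ctsd differed by -0.67 ± 0.20 (adjusted p = 0.0869). Its mean log2 ratio to the pool was 0.04 and -0.64 in the controls of 24 and 96 h. With the middle and high doses at 96 h it was 0.25 and 0.29.

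Hm13, the signal peptide peptidase, which cuts within membranes, rose by 0.89 ± 0.16 with the high dose at 24 h, and by 1.11 ± 0.19 and 1.41 ± 0.16 with the middle and high doses at 96 h. Bace1, a beta-secretase gene, changed by -1.58 ± 0.38 and -2.14 ± 0.33 in the last 2 comparisons. The other 6 (bace2, napsa, ddi2, psen2, sppl2 and sppl3) did not pass in any of the 6 comparisons, with values from -0.42 to 0.31. No list member besides nots had a rise above 1.41.

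No called change in the lists of cathepsins of other classes and of further lysosomal genes was as large as that of nots in the same comparison. The cathepsin list also held other proteases (lgmn, scpep1, tpp1 and cpvl). Of its 18 measured genes, 5 rose and 1 fell with the high dose at 96 h, with a median of 0.16. In that comparison 9.19% of all tested probes rose and 8.78% fell. Ctsa rose by 1.01 ± 0.17, scpep1 by 1.08 ± 0.21, tpp1 by 1.101 ± 0.22, and ctslb fell by 0.98. Ctsba and lgmn, outside the 4 first by p, rose by 1.32 ± 0.28 (1 of 2 probes) and 1.15 ± 0.25. After 24 h of that dose none of these 18 rose and 4 fell, where 7.09% of tested probes rose and 5.7% fell. Ctsla, a cathepsin L gene named after its values were seen, had the largest called change of these 18 at 24 h, -2.11 ± 0.35 with the high dose (adjusted p = 1.25e-05) and -1.45 ± 0.35 with the middle dose (adjusted p = 0.00562). Of 27 other lysosomal genes, 9 rose and none fell with the high dose at 96 h, beside the same shares of all tested probes (9.19% and 8.78%), with a median of 0.41. Npc2.1 led with 3.47, and lamp2 (1.16 ± 0.18), cd63 (1.97 ± 0.35) and lamp1a (0.90 ± 0.18), which encode lysosomal membrane proteins, followed by p. For lamp2, 2 of 4 tested probes rose, and for lamp1a 1 of 2. At 24 h the same dose gave cd63 a change of -1.196 ± 0.35 (adjusted p = 0.014), the fall among the 27, and 4 of them rose. The cd63 controls themselves had a mean log2 ratio to the pool of -0.01 at 24 h and -1.71 at 96 h. Its changes at these times are thus taken from unlike control levels.

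Among 16 egg yolk, egg coat and estrogen receptor genes, 4 rose and 1 fell with the high dose at 96 h, with a median of 0.52, where 9.19% of all tested probes rose and 8.78% fell. The 4 were vtg3 (7.81 ± 0.26), vtg7 (7.64 ± 0.50), esr1 and vtg2 (0.60 ± 0.15), and esr2a fell by 0.76. The vtg2 controls had a mean log2 ratio to the pool of 0.57 at 24 h and -0.04 at 96 h. The other measured vitellogenin genes, vtg4, vtg5 and vtg6, did not pass (-0.14 ± 0.20, 0.09 ± 0.17 and 0.03 ± 0.18). None of the 7 measured zona pellucida genes, which encode the egg coat, passed.

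Hepatocyte markers were lower where nots was high. All 13 measured hepatocyte markers were above background in Cy5 on most treated arrays, but so were 11 of 12 ovary and 9 of 9 testis markers, so that presence alone does not tell the tissues apart. Against the pool the mean log2 ratio of the hepatocyte markers was 2.42 to 3.48 on 24 h controls and 2.52 to 3.36 on 96 h controls. With the high dose it was 0.29 to 1.97 at 24 h and 0.66 to 1.82 at 96 h. In that last group 11 of the 13 fell and none rose (median -1.79), where 8.78% of all tested probes fell and 9.19% rose. Serpina1, f2, apobb.1 and hpda were the first by p, and fabp10a was the lowest in value at -2.70 ± 0.47. Ambp (-0.53 ± 0.22) and ttr (-0.62 ± 0.29) did not pass. In bulk liver RNA, fewer hepatocytes and less of these RNAs per cell cannot be told apart, and the part of such a shift in the nots values was not tested.

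Ovary and oocyte markers averaged below the pool on every array except low-dose replicate 2 of 24 h, described above. With the high dose at 96 h none of 12 passed, and their mean ratio was -2.18 to -1.32, against -2.50 to -1.66 on 96 h controls. In the same comparison, where 9.19% of all tested probes rose and 8.78% fell, 2 of 9 testis markers rose and 1 fell. Of 8 macrophage markers 1 rose, of 13 exocrine pancreas markers 4 rose, and of 4 erythrocyte and 4 intestine markers none passed. The pancreas markers averaged -2.85 to 0.01 on 96 h controls and -0.63 to -0.09 with the high dose at 96 h.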

How the data were processed

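The values are the log2 ratios that the authors deposited, with a column for each array, of the Cy5 fish sample over the Cy3 pool. Their normalization is not given in the sources used here. Scanner files, deposited for 35 treated samples and used here, give, per the file headers, the median brightness (intensity) of each spot and its background in both channels and the percent of pixels above background. The ratio column of these files was identical to the deposited values (maximum difference 0), which by itself does not show direction. Direction and scale were read from Cy5 over Cy3 ratios of nots recomputed from brightness. On the 35 arrays these differed from the centred deposited ratios by -0.13 to 0.30.

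Arrays were centred on their median (-0.04 to 0.03 before), and 8 group means were fitted with limma 3.58.1 in R 4.3.3 (data.table package, version 1.17.8) to 22046 probes with values on at least 3 arrays of each group. Exact permutation tests and correlations used SciPy 1.17.1, NumPy 2.4.6 and pandas 2.3.3 in Python 3.11.15, and plots matplotlib 3.10.9. Since separate tanks are not stated, p-values reflect variation among arrays, part of which may be technical. Of several probes of a gene, the brightest in Cy3 stands for it, except for likeness (best probe). Probe symbols come from the platform annotation, updated through RefSeq gene records of GRCz12tu, and no coordinates or sequences were used.

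Named genes were nots, vtg3, esr1, the 8 most like and 4 most opposite, up to 3 rank neighbours on each side, all aspartic proteases and up to 4 members of each other list by p. Nots and the lists were chosen with earlier results of these data known. The fit was tested on simulated data. For 6 of the 7 high-dose 96 h samples the description states 1 h more than the title, which was followed, and the middle-dose 96 h descriptions number 6 replicates where 4 were used.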

Additional observations from a re-analysis of the deposited data

Results flagged for a closer look

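The Cy5 brightness of the nots spot on replicate 1 of the middle dose at 96 h was 39866 scanner units, far from the other 3 arrays of its group, which were all at the scanner ceiling. Its Cy3 brightness, 1323, was also the lowest of the group, and its ratio (5.42) was within the group's range. The 3 others are tied at the ceiling, so any unsaturated array would stand apart here, and the usual rate of about 1 in 20 groups by chance does not hold. In all, 28 sets of values were examined.

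The effect of estradiol on nots differed between times by 4.16 for the low dose (adjusted p = 1.93e-10) and by 2.49 for the middle dose (adjusted p = 0.000632), both larger at 96 h, and the first exceeded the difference for the high dose by 2.82 as measured (adjusted p = 3.85e-05), each tested as an interaction in limma's fit. All 6 low-dose and all 4 middle-dose arrays of 96 h were above every 24 h array of the same dose. Saturation at 96 h touches the middle and high doses and not the low dose, so 2.49 is a lower limit and 2.82 an upper limit.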

How the results depend on the processing

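Under the alternatives to the fit, 181 of 194 values of the main nots results and 248 of 260 with 1 array left out kept their side of the threshold. No called difference reversed direction. The uncalled difference of the high against the middle dose at 96 h ran from -0.06 to 0.33 under the alternatives, and so changed sign. Calls that ended were, with quantile normalization, the middle and high against the low dose at 96 h (0.67 and 0.61, adjusted p = 0.339 and 0.201). With only the arrays of the contrast, calls ended for high against middle dose at 24 h (1.27, adjusted p = 0.145) and middle against low dose at 96 h (1.23, 0.0612), and from scanner brightness the same calls ended (1.31 and 1.23, 0.0669 and 0.0556). Without low-signal arrays the former was 0.64 (adjusted p = 1), and without the 4 arrays nearer to the other time, chosen after seeing the data, 0.99 (0.0863). Calls gained were the time difference of the high dose with array weights (1.53, 0.0145), without low-signal arrays (2.08, 0.000804) and without those 4 (1.79, 0.00115), 24 h controls against the pool with their own arrays alone (-0.29, 0.032), and the low dose at 24 h by the exact test (0.51, 0.0325). Of 80 list counts, 1 moved: with pooled controls 2 genes of the cathepsin list fell, against 1. The causes were not tested. With 1 array left out, 96 h controls against the pool ranged from -0.53 to -0.38 (ended in 3 of 7 fits), middle against low dose at 96 h from 1.01 to 1.38 (3 of 10), high against middle dose at 24 h from 1.02 to 1.47 (4 of 12: middle-dose replicate 1, high-dose replicates 3, 4 and 5), and the time difference of the high dose from 1.14 to 1.59 (gained in 2 of 28).

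The titles number the replicates without saying whether same-numbered samples shared anything else. Between same-numbered treated and control samples, 5 of 35 correlations of deviations exceeded 0.1 (-0.29 to 0.44). With the number as a replicate block, the rise of nots with the high dose at 96 h was 6.03, the step from middle to high dose at 24 h 1.27 (adjusted p = 0.0256), and no nots call changed. Over all probes calls for the high dose at 96 h went from 3960 to 3791. Depth has no counterpart here, and signal limits the 7 saturated arrays to lower bounds.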
